A study of Rattus norvegicus with 30 samples.

Results

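Of the 30 plantaris tendons in the series, 5 came from rats whose tendon had been cut and repaired 21 days earlier and who received 6 mg/kg of GSK2894631A, and their RNA sequencing counts were set against those of the 3 control tendons. Members were chosen by their labels alone, as the 5 tendons of the 21D 6 mg/kg group and the 3 control tendons, which makes 8 of 30. GSK2894631A inhibits hematopoietic prostaglandin D synthase (HPGDS), an enzyme that makes prostaglandin D2, and the study asked whether blocking it alters the healing of a cut tendon. All rats were 3-month-old male Sprague Dawley rats. In the repaired group both plantaris tendons were cut through their full thickness and sutured at once, and the compound was given by oral gavage 2 times a day until tissue was collected. Control rats had neither the operation nor the compound, so that injury, repair and dosing cannot be told apart when the 2 groups are compared. The right tendon was used for RNA, after removal just below its junction with the muscle and above the heel bone. The groups most alike were repaired tendons without the compound (21D 0 mg/kg, 5 tendons) and tendons 7 days after repair at 6 mg/kg (7D 6 mg/kg, 3 tendons). Rats of the 0 mg/kg group were given the vehicle, the liquid in which the compound was suspended, by the same gavage.

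The plantaris tendon joins a calf muscle to the heel. Tendon cells (tenocytes) build parallel fibrils of type I collagen, and small proteoglycans set the width and spacing of the fibrils. After a full cut, blood cells and macrophages enter the gap, cells divide, and fibroblasts lay down a scar that is rich in type III collagen and glycoproteins and that proteases then remodel over weeks. Prostaglandins are lipid signals made from arachidonic acid by the cyclooxygenases and by a terminal synthase for each product.

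The 8 libraries held between 20446525 and 43348403 counts on listed genes, and 3 counts corresponded to 0.0690 to 0.245 counts per 1000000 (CPM). Levels are given as CPM of a library size scaled by the trimmed mean of M values (TMM). The TMM factors were 0.599 to 0.789 in control tendons and 0.950 to 1.07 in repaired tendons. Markers of skeletal muscle, a tissue that the dissection should leave behind, took an uneven share of the counts in the tendons. The share of 29 muscle genes was 20.4, 20.3 and 28.2% in control tendons 2, 3 and 4. In 21D 6 mg/kg tendons 1 to 5 it was 7.95, 10.1, 0.348, 5.47 and 0.447%, so that tendons 3 and 5 stood apart from tendons 1, 2 and 4. The range was 0.0697 to 8.27% at 21D 0 mg/kg and 0.0101 to 0.0125% at 7D 6 mg/kg. In bulk tissue, fewer cells of a type and less RNA per cell cannot be told apart. The tissue was named from its dissection. Scx, Tnmd and Mkx, genes of the tendon lineage, were detected in all 8 tendons, Mkx at low levels after repair. All 11 of 11 genes on a tendon lineage list passed the filter on low values. For named genes whose fold change moved by more than 1.5 times with the muscle share as a covariate, that value is given beside the result. The covariate was the log2 of this share. Control and repaired tendons did not overlap in it. Against control tendons the covariate thus cannot be fully told apart from the group, and its values are no correction for muscle.

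**Figure D1:**
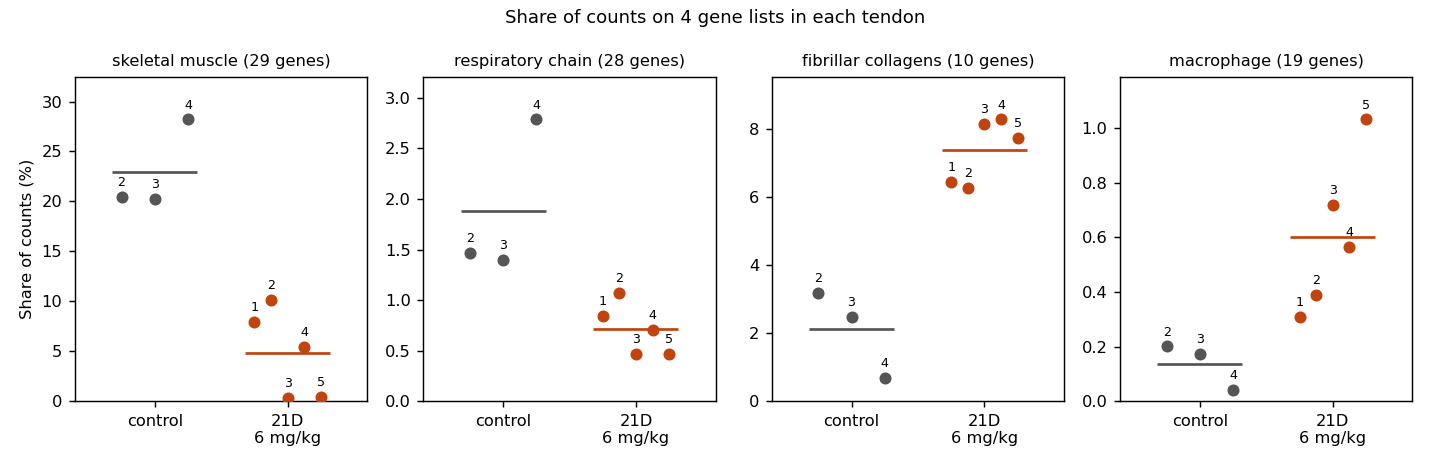
Share of each tendon's counts (%, linear axes from 0) on 4 gene lists, for 3 control tendons and 5 21D 6 mg/kg tendons. Points are tendons with their replicate number and lines are group means. The muscle share was 20.3% or more in control tendons and 10.1% or less in repaired tendons, with tendons 3 and 5 under 1%, and the fibrillar collagen share was above 6% in every repaired tendon.

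Of 12558 genes tested, 3003 (23.9%) were higher and 3085 (24.6%) were lower in 21D 6 mg/kg tendons than in control tendons, by the quasi-likelihood test of edgeR, with a limit of 0.05 on the Benjamini-Hochberg adjusted p and of 1.5-fold on the change. Genes that pass both limits are here called. Counts of calls in the gene lists below are to be read beside these shares of all genes. A change of 4-fold or more was found upward in 559 called genes and downward in 649, and one of 16-fold or more in 86 and 27. In 5356 of the 6088 called genes the 5 repaired and 3 control levels did not overlap, where 53.7% of all genes tested had no overlap. Every called gene named below had no overlap between the groups, except Ptgs2, Dmp1 and Pmp22. The genes given as the largest increases and decreases were picked among called genes without overlap. For them the lack of overlap follows from that choice and is no result. The median log2 fold change of all genes was 0.01. Higher calls made up 49.3% of the calls with TMM and 77.4% when levels were scaled by library size only, which moved the median of all genes to 0.51. Each fold change below is therefore relative to the TMM scale.

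The largest increase was that of Tnn, which encodes tenascin-W, a matrix glycoprotein of developing bone and stroma (chromosome 13 of rn6). Its level was 1.27, 0.601 and 1.06 CPM in control tendons 2, 3 and 4 and 449, 360.3, 391, 609 and 375 CPM in repaired tendons 1 to 5, and the groups lay far apart (log2 fold change 8.82 ± 0.64 (SE), edgeR adjusted p = 3.02e-10). The value was 8.78 with the muscle share as a covariate, and 8.63 without tendons 1, 2 and 4. Mmp12, the macrophage elastase, measured 0.707, 1.64 and 1.47 CPM in control tendons and 80.9, 95.7, 299.9, 302 and 960.1 CPM in repaired tendons. Every repaired tendon was above every control tendon, and tendon 5 was 3 times or more above the others (log2 fold change 8.10 ± 1.45 (SE), edgeR adjusted p = 3.60e-05). Mmp9, a gelatinase of macrophages and osteoclasts, went from 0.66, 0.2804 and 0.245 CPM to 16.8, 58.9, 47.4, 15.9 and 149.6 CPM (log2 fold change 7.13 ± 1.46 (SE), edgeR adjusted p = 1.67e-04), again with its highest value in tendon 5. Mmp12 was at 6.55 and Mmp9 at 6.29 with the muscle share as a covariate.

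Msln, which encodes the surface protein mesothelin of mesothelial cells, measured 0.754, 0.1602 and 1.96 CPM in control tendons and 71.8, 114, 43.8, 146 and 163 CPM in repaired tendons (log2 fold change 6.99 ± 0.65 (SE), edgeR adjusted p = 6.15e-09). Here tendon 3 had the lowest repaired level and tendon 5 the highest. Atp6v0d2, a proton pump subunit of osteoclasts and macrophages, was at 0.283, 0 and 0 CPM in control tendons and rose to 4.99, 5.36, 15.1, 7.86 and 30.3 CPM (log2 fold change 6.90 ± 1.30 (SE), edgeR adjusted p = 6.42e-05). Ccl9, a chemokine for myeloid cells, rose from 0.424, 1.12 and 1.06 CPM to 31.7, 29.4, 58.2, 44.4 and 302 CPM (log2 fold change 6.75 ± 1.48 (SE), edgeR adjusted p = 3.47e-04). Both had their highest level in tendon 5, one of the 2 tendons with little muscle RNA. Without that tendon the log2 fold change was 6.29 for Atp6v0d2, 5.57 for Ccl9, 6.40 for Mmp9 and 7.26 for Mmp12. Under the muscle covariate it was 5.78 for Atp6v0d2 and 5.11 for Ccl9. Without control tendon 4 it was 7.88 for Msln, and without control tendon 3 it was 6.19 for Atp6v0d2, whose 6 control counts all came from control tendon 2. Against control tendons 3 and 4 alone, both at 0 counts, Atp6v0d2 was at least 51.9-fold higher, from the floor of 3 counts in the shallower of them.

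Other large increases were those of Cdhr1 and of 2 loci without a gene name. Cdhr1, a cadherin-related protein of photoreceptors, was at 0.189, 0 and 0 CPM in control tendons and at 17, 21.1, 11.3, 41.9 and 18.5 CPM in repaired tendons (log2 fold change 8.25 ± 1.10 (SE), edgeR adjusted p = 8.01e-07). The loci LOC290595 and LOC100911486, which have no symbol of their own in the annotation, had log2 fold changes of 7.04 and 6.98, and the levels of LOC100911486 were 0.613, 0.521 and 0.4897 CPM against 63.1, 47.2, 131, 47.2 and 58.6 CPM. None of the 3 overlapped between groups, which the choice of genes required. The 4 control counts of Cdhr1 all came from control tendon 2. Without that tendon the value was 9.63 for LOC290595, and without control tendon 3 it was 7.54 for Cdhr1. Against control tendons 3 and 4 alone Cdhr1 was at least 89.7-fold higher by the same floor.

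Among the decreases, 2 genes of cartilage-like matrix led. Clec3a, a C-type lectin of cartilage, was at 764, 76.3 and 28.9 CPM in control tendons and at 1.14, 0.02896, 4.97, 1.59 and 0.283 CPM in repaired tendons (log2 fold change -7.54 ± 1.31 (SE), edgeR adjusted p = 2.53e-05). Chad, which encodes chondroadherin, a leucine-rich protein that binds cells and collagen, fell from 962, 179.7 and 119 CPM to 11.2, 5.73, 4.39, 3.98 and 3.46 CPM (log2 fold change -6.20 ± 0.94 (SE), edgeR adjusted p = 4.58e-06). Angptl7, a secreted angiopoietin-like protein, fell from 2243, 452 and 123 CPM to 15.4, 36.9, 79.4, 21.8 and 31.6 CPM (log2 fold change -4.67 ± 0.76 (SE), edgeR adjusted p = 1.06e-05). For each of the 3 the highest control level, in tendon 2, was several times the next. The lowest control level exceeded the highest repaired level, which the choice of genes required. Without control tendon 2 the log2 fold change was -5.12 for Clec3a, -4.77 for Chad and -3.02 for Angptl7, and Clec3a was at -8.54 without repaired tendon 3 and at -8.30 with the muscle share as a covariate.

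Ostn, which encodes the muscle and bone peptide osteocrin (musclin), and Fbp2, the muscle fructose bisphosphatase, varied with the muscle share among the repaired tendons. Ostn measured 232, 502 and 591 CPM in control tendons and 17.5, 5.73, 0.869, 12.3 and 0.636 CPM in repaired tendons (log2 fold change -5.89 ± 1.25 (SE), edgeR adjusted p = 2.45e-04). Fbp2 measured 147, 117 and 328 CPM and then 12.4, 12.3, 0.414, 7.57 and 0.424 CPM (log2 fold change -4.89 ± 1.07 (SE), edgeR adjusted p = 3.39e-04). In both genes repaired tendons 3 and 5, with under 1% of counts on muscle genes, were lowest. With the muscle share as a covariate the log2 fold changes were -3.23 and -1.96, both still called. The share's part in the rest was not tested. Cdhr3 fell from 11.5, 10.8 and 16.7 CPM to 0.338, 0.434, 0.331, 0.529 and 0.0707 CPM (log2 fold change -5.21 ± 0.66 (SE), edgeR adjusted p = 4.08e-07), and Fam83b and RGD1562029 had log2 fold changes of -5.49 and -4.47, or -4.29 and -3.75 with the covariate. LOC259244 and the pseudogene AABR07048482.1 completed the list, at -4.95 and -5.07. Without control tendon 3, in which both were highest, the values were -2.48 and -2.51, without control tendon 4 they were -5.54 and -5.66, and without repaired tendon 3 the second was at -5.78. Reads of such loci may be shared with near-identical copies.

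**Figure D2:**
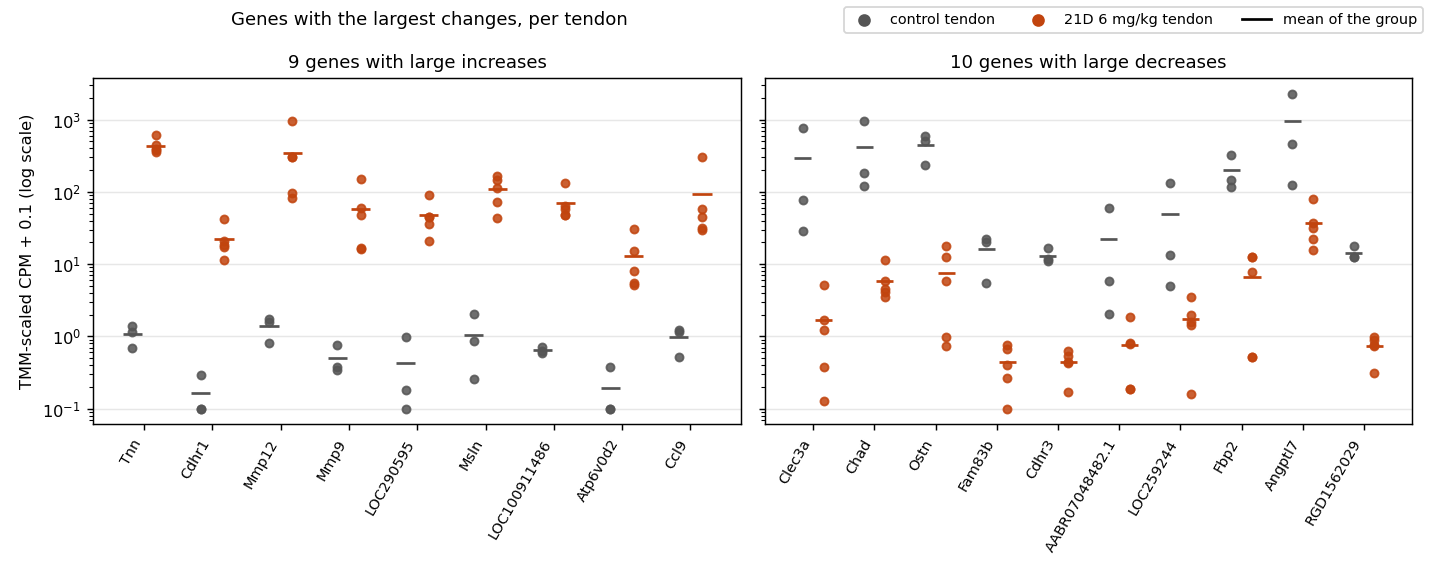
TMM-scaled CPM plus 0.1 (log axis) of 9 genes with large increases and 10 with large decreases, for 3 control and 5 21D 6 mg/kg tendons. Points are tendons and short lines are group means. These genes were picked among called genes without overlap between the groups. The repaired tendons spread more than 10-fold in Mmp12, Ccl9, Ostn, Fbp2 and Clec3a and little in Tnn.

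The genes that define tenocytes did not move as 1 group. Of 11 tested genes on the tendon lineage list, 2 were higher and 4 lower, beside 23.9% and 24.6% of all genes. The median log2 fold change of the list was -0.38. Without control tendon 3 or 4 there was 1 higher, and without control tendon 2 there were 2 lower. Mkx, a homeobox factor of tenocytes, was at 9.38, 4.89 and 2.77 CPM in control tendons and at 0.169, 0.8399, 1.28, 0.345 and 0.5301 CPM in repaired tendons (log2 fold change -3.17 ± 0.59 (SE), edgeR adjusted p = 5.16e-05), with no overlap. Scx, the basic helix-loop-helix factor that marks the tendon lineage, measured 37.2, 18.99 and 25.3 CPM and 22.2, 29.2, 19.5, 15.4 and 17.8 CPM, and its groups overlapped (log2 fold change -0.38 ± 0.38 (SE), edgeR adjusted p = 0.389). Tnmd, which encodes the late tenocyte membrane protein tenomodulin, measured 364, 147 and 178 CPM and 117, 119, 315, 76.2 and 132 CPM, with tendon 3 above the other repaired tendons (log2 fold change -0.60 ± 0.45 (SE), edgeR adjusted p = 0.247). Without that tendon Tnmd passed the test, at -1.05 (adjusted p = 0.0362). Egr2, a zinc finger factor that promotes collagen expression, was the largest increase on the list, from 1.32, 4.25 and 4.08 CPM to 11.7, 11.8, 11.5, 15.4 and 37.7 CPM (log2 fold change 2.47 ± 0.74 (SE), edgeR adjusted p = 0.005703). With the muscle share as a covariate Egr2 was no longer called, at 1.66 (adjusted p = 0.0583).

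Most collagen genes were higher, while the main chain of type I collagen did not pass the test. Among 10 tested fibrillar collagen genes 6 were higher and 2 lower (median log2 fold change 1.53), and of 12 other collagen genes 9 were higher and none lower (median 1.37). Col3a1, the type III collagen of young scar, was at 11401, 12287 and 3487 CPM in control tendons and at 41369, 39685, 44432, 48102 and 44296 CPM in repaired tendons. All repaired tendons lay above all control tendons, and they differed little among themselves (log2 fold change 2.27 ± 0.29 (SE), edgeR adjusted p = 5.35e-07). For Col1a1, the main chain of tendon fibrils, the levels were 30114, 17811 and 7353 CPM and 20706, 22139.7, 31178, 28411 and 23383 CPM, and the groups overlapped (log2 fold change 0.45 ± 0.32 (SE), edgeR adjusted p = 0.229). Control tendon 2 exceeded 4 of the 5 repaired tendons, and without it Col1a1 was called at 0.94 (adjusted p = 0.0197). It was also called when levels were scaled by library size only, at 0.90.

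Chains that start, line or surround the fibrils were among the called genes. Col5a3, a chain of type V collagen, which starts fibrils, rose from 67.7, 68.2 and 54.2 CPM to 456, 653, 589, 1322 and 934 CPM (log2 fold change 3.64 ± 0.41 (SE), edgeR adjusted p = 9.08e-08). Col12a1, which sits on fibril surfaces, and Col6a1, of pericellular microfibrils, had log2 fold changes of 1.86 and 1.76. Col8a1, a short chain network collagen, led the second list at 2.78. Against this, Col11a2, a chain of type XI collagen, fell from 281, 49.8 and 101 CPM to 10.3, 12.7, 13.5, 5.43 and 16.5 CPM (log2 fold change -3.62 ± 0.53 (SE), edgeR adjusted p = 2.69e-06). Col24a1, a minor fibrillar collagen, fell from 72.8, 90.4 and 35.8 CPM to 11.5, 9.59, 7.16, 4.05 and 4.63 CPM (log2 fold change -3.17 ± 0.41 (SE), edgeR adjusted p = 5.55e-07). Neither of these overlapped between groups, and Col11a2 was at -2.76 without control tendon 2.

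Enzymes that finish collagen were mostly higher, 10 of 14 tested against 1 lower, which was lost without control tendon 2 or 3 (median log2 fold change 0.96). Lox and Loxl1, which crosslink collagen and elastin, measured 212, 129 and 55.5 and 105, 75.8 and 31.3 CPM in control tendons. In repaired tendons Lox was at 584, 576, 712, 598 and 551 CPM and Loxl1 at 326, 398, 446, 486 and 422 CPM, without overlap in either (log2 fold changes 2.19 and 2.56, edgeR adjusted p = 8.87e-07 and 2.75e-08). P4ha3, a prolyl hydroxylase subunit, went from 9.9, 6.97 and 2.53 CPM to 60.8, 57.4, 80.1, 58.7 and 81.3 CPM (log2 fold change 3.36 ± 0.33 (SE), edgeR adjusted p = 1.47e-08). Serpinh1, the collagen chaperone HSP47, had a log2 fold change of 1.09, and P4ha1, another hydroxylase subunit, had one of -0.41 (adjusted p = 0.147).

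The small leucine-rich proteoglycans split by gene, with 3 of 8 higher and 1 lower (median 0.74), or 3 lower without control tendon 3 or 4 and 2 lower without repaired tendon 1 or 3. Lum, which encodes lumican, was at 274, 78.6 and 135 CPM in control tendons and 3669.9, 3017, 3985, 3178 and 2767 CPM in repaired tendons, a wide gap (log2 fold change 4.36 ± 0.37 (SE), edgeR adjusted p = 2.61e-09). Bgn, which encodes biglycan, rose from 1117, 685 and 388 CPM to 3119, 2465, 4227, 3000.5 and 2802 CPM (log2 fold change 2.10 ± 0.26 (SE), edgeR adjusted p = 3.16e-07). Dcn (decorin) and Fmod (fibromodulin) overlapped between groups, at 4096 ± 1967 and 1615 ± 1379 CPM in control tendons (mean ± SD, n = 3) and 4824 ± 899 and 977 ± 389.9 CPM in repaired tendons (n = 5), which gave log2 fold changes of 0.24 (adjusted p = 0.368) and -0.73 (adjusted p = 0.106). Fmod passed the test without repaired tendon 3, control tendon 3 or control tendon 4, at -0.96, -1.01 and -1.10, and was at 0.19 without control tendon 2.

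Matricellular proteins, which signal to cells from the matrix, were higher in 14 of 15 genes tested (median 2.18), against the 23.9% of all genes. Besides Tnn, Fn1 (fibronectin) rose from 2494, 1302 and 403 CPM to 5430.4, 8192, 9939.6, 13762 and 15396 CPM (log2 fold change 2.91 ± 0.46 (SE), edgeR adjusted p = 6.46e-06). Spp1, which encodes osteopontin, went from 6.74, 4.89 and 8.32 CPM to 88.1, 139, 505, 325 and 1105 CPM (log2 fold change 6.03 ± 1.52 (SE), edgeR adjusted p = 0.00134), and here tendons 3 and 5, with the least muscle RNA, were highest. Under the muscle covariate Spp1 was at 3.96 (adjusted p = 0.0108). Wisp2 (CCN5) went from 26.2, 45.98 and 5.22 CPM to 305, 226, 438, 317 and 355 CPM (log2 fold change 3.66 ± 0.45 (SE), edgeR adjusted p = 2.77e-07). Tnc, which encodes tenascin-C, measured 259, 98.3 and 90.1 CPM and 231, 152, 252, 394 and 163 CPM, and was the 1 member not called (log2 fold change 0.68 ± 0.47 (SE), edgeR adjusted p = 0.214). Without 1 tendon, Fn1 was at 3.57 (control 2), Wisp2 at 4.39 (control 3), Spp1 at 5.32 (repaired 5), and Tnc at 1.28 (control 2), where it was called.

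Cartilage genes gave 2 higher and 4 lower of 12 (median -0.37), beside 23.9% and 24.6% of all genes. Matn3 (matrilin 3) rose from 0.0471, 0.2003 and 1.22 CPM to 5.58, 5.44, 19.99, 4.94 and 4.49 CPM, with tendon 3 far above the rest (log2 fold change 4.25 ± 0.72 (SE), edgeR adjusted p = 1.66e-05, and 3.59 without that tendon, 3.58 without control tendon 2 and 5.88 without control tendon 4). Col9a1, of cartilage type IX collagen, fell from 8.44, 8.77 and 5.71 CPM to 0.296, 0.898, 0.538, 0.736 and 1.06 CPM (log2 fold change -3.42 ± 0.56 (SE), edgeR adjusted p = 1.22e-05, and -2.71 with the muscle share as a covariate). Comp, the oligomeric matrix protein shared by cartilage and tendon, measured 958, 171 and 133 CPM and 256, 168, 578, 229 and 282 CPM (log2 fold change -0.48 ± 0.54 (SE), edgeR adjusted p = 0.451), and its value was 0.93 without control tendon 2.

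**Figure D3:**
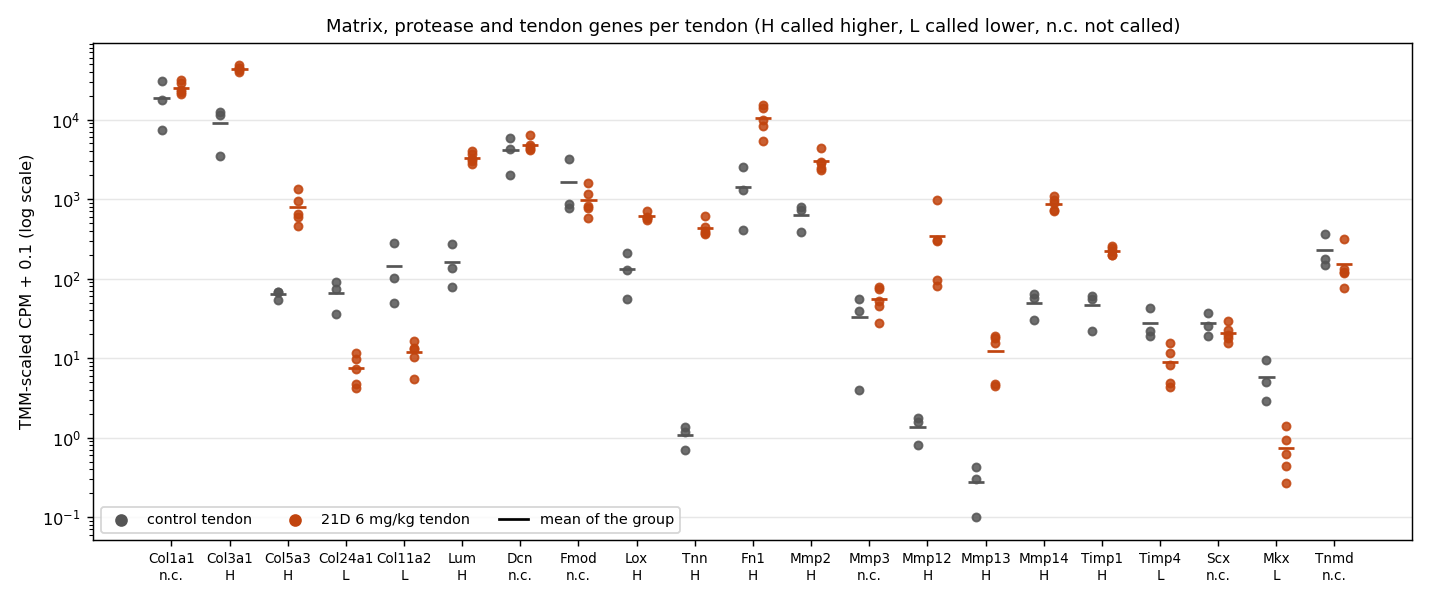
TMM-scaled CPM plus 0.1 (log axis) of 21 matrix, protease and tendon genes in 3 control and 5 21D 6 mg/kg tendons. Points are tendons, short lines are group means, and H, L and n.c. mark genes called higher, called lower and not called. Tnn, Mmp12, Mmp13, Mmp14 and Lum had wide gaps between groups, while Col1a1, Dcn, Fmod, Scx and Tnmd overlapped.

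Most proteases that cut matrix were higher. Of 14 matrix metalloproteinases tested 9 were higher and 2 lower (median log2 fold change 1.95), and of 17 ADAMTS proteases 11 were higher and 1 lower (median 1.38, with 0 lower when control tendon 2 or 3 or repaired tendon 5 was left out), while 2 of 5 inhibitors were higher and 1 lower (median 0.40). Mmp14, the membrane protease that activates Mmp2, was at 56.1, 63.1 and 30.1 CPM in control tendons and 711, 719.8, 1097, 892 and 966 CPM in repaired tendons, with a narrow spread in each (log2 fold change 4.14 ± 0.31 (SE), edgeR adjusted p = 4.27e-10). Mmp2, a gelatinase of fibroblasts, rose from 723, 797 and 389 CPM to 2475, 2297, 4363, 2906 and 2818 CPM (log2 fold change 2.22 ± 0.25 (SE), edgeR adjusted p = 7.54e-08). Mmp13, a collagenase, was nearly absent from control tendons at 0, 0.2003 and 0.326 CPM and was at 19.03, 4.66, 15.2, 4.39 and 17.8 CPM after repair (log2 fold change 6.25 ± 1.18 (SE), edgeR adjusted p = 6.51e-05, 5.54 without control tendon 2 and 5.37 with the muscle share as a covariate). Mmp3, a stromelysin with a broad range of substrates, measured 54.9, 38.6 and 3.92 CPM and 44.5, 27.7, 73.98, 52.8 and 77.4 CPM and was not called (log2 fold change 0.76 ± 0.62 (SE), edgeR adjusted p = 0.287). Control tendon 4 lay far below the other 2 control tendons for Mmp3, and the groups overlapped. With the covariate the value of Mmp3 turned to -0.13, not called.

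Mmp12, Mmp13 and Mmp3 lie in 1 gene cluster on chromosome 8, and their promoters are shown because the 3 genes gave different results in the same 8 tendons. Sequences from 250 bases before to 50 bases after the annotated start are those of RefSeq on build GRCr8, all on the plus strand, at chr8:12866402-12866701 for Mmp12, chr8:12782579-12782878 for Mmp13 and chr8:12925031-12925330 for Mmp3. Capitals mark the letters TGANTCA, the motif of the AP-1 factors (Fos and Jun), searched on both strands:
Mmp12: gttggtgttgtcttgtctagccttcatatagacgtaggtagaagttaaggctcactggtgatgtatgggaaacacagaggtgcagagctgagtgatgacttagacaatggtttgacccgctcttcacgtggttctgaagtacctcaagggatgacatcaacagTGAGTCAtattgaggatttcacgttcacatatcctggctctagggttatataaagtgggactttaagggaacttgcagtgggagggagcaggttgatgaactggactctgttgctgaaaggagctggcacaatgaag
Mmp13: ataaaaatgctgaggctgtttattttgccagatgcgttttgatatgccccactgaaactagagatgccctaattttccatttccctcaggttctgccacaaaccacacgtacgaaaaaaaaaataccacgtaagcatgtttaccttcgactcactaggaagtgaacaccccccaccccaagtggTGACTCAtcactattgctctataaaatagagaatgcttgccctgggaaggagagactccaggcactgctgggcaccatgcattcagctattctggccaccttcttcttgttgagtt
Mmp3: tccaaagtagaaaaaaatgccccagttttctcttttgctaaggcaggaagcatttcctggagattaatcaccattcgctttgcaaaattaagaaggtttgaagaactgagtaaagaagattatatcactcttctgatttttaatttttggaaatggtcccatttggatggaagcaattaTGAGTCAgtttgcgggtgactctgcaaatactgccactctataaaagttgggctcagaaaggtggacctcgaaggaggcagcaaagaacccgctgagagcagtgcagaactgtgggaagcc
The motif began 87 bases before the start in Mmp12, 66 in Mmp13 and 71 in Mmp3. It was in 4 of the 8 metalloproteinase promoters found among the 14 genes tested, in 2 of the 3 of those whose gene was called higher, and in 7.33% of 27457 promoters of the same length. The fourth was Mmp10, another stromelysin, whose levels were 4.24, 3.405 and 0.0816 CPM in control tendons and 1.86, 0.8399, 5.13, 5.15 and 5.19 CPM in repaired tendons (log2 fold change 0.45 ± 0.75 (SE), edgeR adjusted p = 0.614, and -0.72 with the muscle share as a covariate, called in neither). A match of letters is a description of the sequence and no test of binding.

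Among the ADAMTS proteases, Adamts15, which cuts proteoglycans, was at 12.8, 20.8 and 9.22 CPM in control tendons and 206, 275, 296, 243 and 291 CPM in repaired tendons (log2 fold change 4.19 ± 0.31 (SE), edgeR adjusted p = 3.02e-10). Adamts2, which trims the ends of procollagen, rose from 337, 228 and 62.9 CPM to 543, 522, 583, 549.8 and 528 CPM (log2 fold change 1.38 ± 0.31 (SE), edgeR adjusted p = 4.09e-04). Adamts19 and Adamts16, with less known substrates, had log2 fold changes of 4.81 and 3.12, and without control tendon 2 these were 5.53 and 3.88. Adamts10 moved less than 1.5-fold (0.39, adjusted p = 0.00712). Of the tissue inhibitors of metalloproteinases, Timp1 went from 55.6, 60.9 and 21.8 CPM to 196, 198, 224, 256 and 243 CPM (log2 fold change 2.27 ± 0.30 (SE), edgeR adjusted p = 6.53e-07) and Timp4 from 18.7, 21.5 and 42.5 CPM to 7.99, 15.4, 11.5, 4.81 and 4.24 CPM (log2 fold change -1.64 ± 0.40 (SE), edgeR adjusted p = 8.65e-04). Timp3 had a log2 fold change of 0.03 (adjusted p = 0.922).

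Growth factors went both ways, with 9 of 24 higher and 6 lower (median log2 fold change 0.24). Of all genes 23.9% were higher and 24.6% lower. Tgfb1, the chief fibrotic cytokine, rose from 32.3, 37.1 and 21.4 CPM to 74.6, 87.3, 95.8, 101 and 107 CPM (log2 fold change 1.62 ± 0.29 (SE), edgeR adjusted p = 3.88e-05). Igf1, which drives growth of tendon and muscle, rose from 68.1, 73.8 and 26.3 CPM to 195, 159.8, 214, 141 and 166 CPM (log2 fold change 1.64 ± 0.29 (SE), edgeR adjusted p = 2.74e-05), and Vegfd, a lymphatic growth factor, had a log2 fold change of 2.85. Vegfa, the main angiogenic factor, fell from 472, 391 and 753 CPM to 157, 187, 57.6, 139 and 86.9 CPM (log2 fold change -2.10 ± 0.28 (SE), edgeR adjusted p = 8.01e-07). Its lowest repaired levels were in tendons 3 and 5, and with the muscle share as a covariate the value was -1.81. Mstn, the muscle growth inhibitor myostatin, had a log2 fold change of -3.65, and -1.44 with the covariate. Fgf9, a fibroblast growth factor, was at -2.99, and at -1.83 with the covariate.

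Macrophage and osteoclast genes were higher, with their highest levels in the 2 repaired tendons that had little muscle RNA. On the macrophage list 11 of 19 genes were higher and none lower (median log2 fold change 1.16), on the osteoclast and cell fusion list 7 of 8 (median 2.88), and on the inflammatory myeloid list 8 of 16 (median 1.91). The macrophage list took 0.201, 0.173 and 0.0418% of counts in control tendons and 0.3104, 0.389, 0.717, 0.565 and 1.03% in repaired tendons. Gpnmb, a glycoprotein of lipid-laden macrophages and osteoclasts, was at 62.8, 88.4 and 21.9 CPM in control tendons and 369.8, 621, 1307, 787 and 2532 CPM in repaired tendons (log2 fold change 4.28 ± 0.83 (SE), edgeR adjusted p = 9.11e-05). Cd68, a lysosomal protein of macrophages, rose from 25.98, 23.6 and 7.18 CPM to 42.7, 62.2, 133, 99.8 and 203 CPM (log2 fold change 2.51 ± 0.67 (SE), edgeR adjusted p = 0.00218). Itgax, the integrin CD11c, rose from 5.28, 2.003 and 0.816 CPM to 19.7, 11.9, 38.95, 28.2 and 119 CPM (log2 fold change 3.96 ± 1.06 (SE), edgeR adjusted p = 0.00219). In all 3 genes tendon 5 was highest and tendon 3 second.

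The resident macrophage scavenger receptor Cd163 measured 96.5, 80.6 and 12.98 CPM in control tendons and 35.4, 61.1, 69.9, 60.2 and 48.3 CPM in repaired tendons, with overlap (log2 fold change -0.21 ± 0.52 (SE), edgeR adjusted p = 0.738). Mrc1, the mannose receptor of the same cells, measured 187, 141 and 27.2 CPM and 136, 184, 271, 223 and 193 CPM (log2 fold change 0.76 ± 0.43 (SE), edgeR adjusted p = 0.119), and without control tendon 2 it was called at 1.20. Ctsk, the bone collagenase cathepsin K, went from 133, 129 and 60.5 CPM to 459.7, 532, 967, 633 and 1098 CPM (log2 fold change 2.78 ± 0.42 (SE), edgeR adjusted p = 4.19e-06), and Acp5, the osteoclast acid phosphatase TRAP, from 13.5, 14.7 and 7.59 CPM to 72.8, 75.5, 117, 79.1 and 129.9 CPM (log2 fold change 2.98 ± 0.46 (SE), edgeR adjusted p = 5.25e-06). Both again were highest in tendons 5 and 3. Nfatc1, the master factor of osteoclasts, had a log2 fold change of -0.45 (adjusted p = 0.0434) and was not called. With the muscle share as a covariate 6 macrophage, 4 osteoclast and 5 inflammatory myeloid genes were higher and 1 osteoclast gene lower, and Gpnmb was at 2.998, Cd68 at 1.35, Itgax at 2.37 and Ctsk at 2.19. Without tendons 3 and 5 the counts were 10, 5 and 6. Without tendon 5 alone Itgax was at 3.14, and without control tendon 2 at 4.79. Without control tendon 4 the osteoclast list had 4 higher, and Nfatc1 was called lower, at -0.71. Nfatc1 was also called lower with the covariate, at -0.65.

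Ccl2, which attracts monocytes, measured 8.16, 40.8 and 3.26 CPM in control tendons and 127, 53.4, 131, 92.9 and 153 CPM in repaired tendons (log2 fold change 2.66 ± 0.53 (SE), edgeR adjusted p = 1.23e-04, and 4.28 without control tendon 3, whose level was highest). Arg1, an enzyme of alternatively activated macrophages, rose from 9.004, 12.02 and 1.88 CPM to 53.5, 40.95, 38.4, 51.3 and 58.2 CPM (log2 fold change 2.64 ± 0.40 (SE), edgeR adjusted p = 4.71e-06). S100a9, a neutrophil protein, measured 5.94, 2.604 and 2.94 CPM and 2.75, 3.65, 14.7, 3.86 and 4.98 CPM, and its groups overlapped (log2 fold change 0.63 ± 0.75 (SE), edgeR adjusted p = 0.472, -0.01 without repaired tendon 3 and 0.03 with the muscle share as a covariate).

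Lymphocyte genes were mostly higher, at low levels. On the T cell list 10 of 14 were higher (median log2 fold change 1.83) and on the B cell list 4 of 6 (median 2.43, or 2.03 with the gene that had no counts in any control tendon at its bound). Cd8a, of cytotoxic T cells, measured 2.07, 1.36 and 0.816 CPM in control tendons and 3.17, 3.76, 7.49, 4.94 and 4.91 CPM in repaired tendons (log2 fold change 1.74 ± 0.36 (SE), edgeR adjusted p = 2.16e-04). Cd3g, of the T cell receptor, went from 0.519, 0.2804 and 0.571 CPM to 1.65, 2.09, 3.77, 3.27 and 3.32 CPM (log2 fold change 2.66 ± 0.49 (SE), edgeR adjusted p = 5.56e-05). Tendon 3 was highest in both. When only the 2 groups compared were fitted, 3 T cell genes and 1 B cell gene were called, beside 2654 higher of 11944 genes tested. The filter on low values then used these 2 groups alone. Low genes such as Cd3g were not tested there, so the smaller counts are not all lost calls. All 6 genes for antigen display by MHC class II were higher (median 1.71), under the muscle covariate as well. Cd74, their chaperone, went from 306, 438 and 195 CPM to 695, 901, 1299, 1058 and 879.8 CPM (log2 fold change 1.63 ± 0.33 (SE), edgeR adjusted p = 1.44e-04), and Ciita, their activator, had a log2 fold change of 1.89.

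Complement genes were higher in 9 of 15 (median 1.22), and in 5 without control tendon 4. C1s, a protease of the first component, went from 202, 249.6 and 81.9 CPM to 939.5, 941, 1161, 1075 and 975 CPM (log2 fold change 2.52 ± 0.26 (SE), edgeR adjusted p = 2.91e-08), whereas C1qa, which binds the target, measured 271, 256 and 97.1 CPM and 252, 327, 387, 402 and 302 CPM and was not called (log2 fold change 0.68 ± 0.36 (SE), edgeR adjusted p = 0.0981). Interferon response genes gave 1 higher of 14 (median 0.49), or 0 without control tendon 3 and 2 without repaired tendon 5, and 1 lower without control tendon 2. Mast cell genes gave 1 higher and 1 lower of 10 (median 0.52), but 6 higher without control tendon 3, and the lower call was lost without any 1 of repaired tendons 2 to 5 or control tendons 3 and 4. Kit, the mast cell receptor also borne by other cells, had a log2 fold change of 1.08. Cma1, a mast cell chymase, measured 1.41, 40.2 and 4.08 CPM and 47.6, 19.1, 42.6, 27.2 and 9.61 CPM (log2 fold change 0.92 ± 0.76 (SE), edgeR adjusted p = 0.296), was called at 3.49 without control tendon 3 and was at 0.32 without control tendon 2 and 1.74 with the muscle share as a covariate (adjusted p = 0.0974).

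Skeletal muscle genes were lower in 20 of 29 tested (median log2 fold change -2.60) against 24.6% of all genes, and none was higher. Myh4, the fast myosin heavy chain, measured 54419, 49861 and 50318 CPM in control tendons and 11592, 14753, 231, 7889 and 711 CPM in repaired tendons, a wide spread in the second group (log2 fold change -2.87 ± 0.95 (SE), edgeR adjusted p = 0.0105). Myoz1, a protein of the fast muscle Z-disc, went from 2565, 2490.2 and 4406 CPM to 504, 653, 17.3, 368 and 25.1 CPM (log2 fold change -3.33 ± 0.94 (SE), edgeR adjusted p = 0.00343). Mb (myoglobin) measured 5627, 6456 and 19659 CPM and 4006, 5588, 258, 2390.2 and 262 CPM, and was not called although the groups did not overlap (log2 fold change -2.08 ± 0.95 (SE), edgeR adjusted p = 0.0592). Repaired tendons 3 and 5 were lowest for all 3. Without tendons 1, 2 and 4 all 29 muscle genes were lower, without tendons 3 and 5 there were 11, with the share as a covariate there were 9, and with a fit of only the 2 groups compared there were 4. With the covariate Myh4 was at -0.72 (adjusted p = 0.0418) and Myoz1 at -1.24, while the direction of Mb turned, at 0.55 (adjusted p = 0.323). The share is the sum of the counts on these same 29 genes. Their smaller changes under the covariate, and the counts after leaving tendons out by that share, thus follow in part from how it was built. Mb was called without repaired tendon 2 (-2.61) or control tendon 2 (-2.45), and was at -1.31 without control tendon 4. Genes of developing muscle were lower in 4 of 7 (median -1.77) and none was higher. Myod1, the muscle regulatory factor, went from 28, 29.96 and 55.1 CPM to 9.52, 9.18, 0.994, 6.48 and 2.19 CPM (log2 fold change -2.73 ± 0.87 (SE), edgeR adjusted p = 0.00923). Myh3, the embryonic myosin, measured 223, 338 and 254 CPM and 297, 527, 18.8, 160.0 and 81.5 CPM with overlap (log2 fold change -0.33 ± 1.04 (SE), edgeR adjusted p = 0.799), and was at -0.96 without repaired tendon 2 and 2.05 with the covariate (adjusted p = 0.08196). With the muscle share as a covariate 1 gene of that list was lower, and Myod1 was at -0.45 and not called (adjusted p = 0.505). The loss of control tendon 4 left 12 of the 29 muscle genes lower, and Myh4 did not pass when only the 2 groups were fitted (-2.81, adjusted p = 0.0724).

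Genes of the respiratory chain were lower in 26 of 28 tested (median -2.01), and all 28 kept the groups apart. Ndufs1, of complex I, measured 608, 526 and 1085 CPM in control tendons and 175, 283, 45.8, 167 and 49.7 CPM in repaired tendons (log2 fold change -2.36 ± 0.38 (SE), edgeR adjusted p = 9.39e-06). Atp5f1a, of ATP synthase, went from 2595, 2277 and 5235 CPM to 871, 1274, 407, 773 and 399 CPM (log2 fold change -2.18 ± 0.29 (SE), edgeR adjusted p = 6.23e-07). Repaired tendons 3 and 5, with the least muscle RNA, were lowest in both. The count was 24 with the muscle share as a covariate and 25 without tendons 3 and 5, and the log2 fold changes were -1.73 and -1.69 with the covariate. Both members that were not called are the non-muscle forms of subunits with a muscle form. Cox6a1 measured 129, 123 and 143 CPM and 190.4, 189.5, 208, 180.0 and 196 CPM (log2 fold change 0.55 ± 0.08 (SE), edgeR adjusted p = 5.12e-06), just short of 1.5-fold. Its muscle form Cox6a2 measured 1049.7, 992 and 3453 CPM and 362, 551, 30.01, 245 and 18.6 CPM (log2 fold change -2.92 ± 0.90 (SE), edgeR adjusted p = 0.006403), was at -0.65 and not called with the covariate, and was at -2.12 (adjusted p = 0.0618) without control tendon 4. Cox8a and its muscle form Cox8b were at 0.32 (adjusted p = 0.00448) and -2.84, and Cox8b was at -0.35 and not called with the covariate, -3.45 without repaired tendon 2 and -1.75 (adjusted p = 0.142) without control tendon 4.

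Cell cycle genes were higher in 23 of 26 (median 1.61) and none was lower. Bub1b, of the spindle checkpoint, measured 0.566, 1.402 and 0.4897 CPM in control tendons and 7.27, 8.23, 7.24, 7.63 and 9.22 CPM in repaired tendons (log2 fold change 3.21 ± 0.41 (SE), edgeR adjusted p = 4.29e-07, and 3.90 without control tendon 3). Ccnb1, which encodes cyclin B1, went from 2.12, 1.88 and 0.898 CPM to 13.5, 9.93, 9.81, 12.8 and 11.2 CPM (log2 fold change 2.77 ± 0.34 (SE), edgeR adjusted p = 2.70e-07). Both had a narrow spread among the repaired tendons. With the muscle share as a covariate 18 were higher.

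Genes for protein folding in the endoplasmic reticulum were higher in 14 of 25 and lower in none (median 0.77). Sec61a1, of the channel into the reticulum, rose from 155, 128 and 87.2 CPM to 294, 271, 354, 309.8 and 329 CPM (log2 fold change 1.34 ± 0.16 (SE), edgeR adjusted p = 2.42e-07). Hspa5, the chaperone BiP, measured 382, 412 and 396 CPM and 511, 477, 505, 572 and 516 CPM, a change of less than 1.5-fold (log2 fold change 0.38 ± 0.14 (SE), edgeR adjusted p = 0.0193). Lysosomal genes were higher in 14 of 20 (median 1.09), led by Gusb, a glucuronidase, from 28.6, 30.3 and 20.98 CPM to 81.97, 96.7, 176, 117 and 239 CPM (log2 fold change 2.41 ± 0.35 (SE), edgeR adjusted p = 1.97e-06). With the covariate 10 of these were higher and Gusb was at 1.80, with its highest levels in tendons 5 and 3. Lamp1, a membrane protein of all lysosomes, had a log2 fold change of 0.15 (adjusted p = 0.321).

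None of 15 endothelial genes was called (median log2 fold change 0.29). When levels were scaled by library size only 6 were called higher, but so were 5485 of all 12558 genes, a similar share. There were 3 higher without control tendon 3, 2 higher without control tendon 4, 2 lower without control tendon 2 and 1 lower without repaired tendon 1. Plvap, of fenestrated vessels, measured 51.7, 243 and 77.04 CPM and 244, 139, 143, 113 and 184 CPM (log2 fold change 0.41 ± 0.40 (SE), edgeR adjusted p = 0.3804, and 1.37 with a call without control tendon 3). Mural and myofibroblast genes gave 1 higher and 1 lower of 13 (median -0.06), or 2 lower without control tendon 2. Acta2, the smooth muscle actin of myofibroblasts, measured 32.1, 98.7 and 59.5 CPM in control tendons and 122, 52.6, 65.04, 64.1 and 52.1 CPM in repaired tendons, and tendon 1 alone lay above all control tendons (log2 fold change 0.16 ± 0.35 (SE), edgeR adjusted p = 0.697). Pdgfrb, the platelet-derived growth factor receptor of pericytes and fibroblasts, rose from 54.97, 63.4 and 78.3 CPM to 151, 149, 264, 156 and 196 CPM (log2 fold change 1.48 ± 0.22 (SE), edgeR adjusted p = 2.92e-06).

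**Figure D4:**
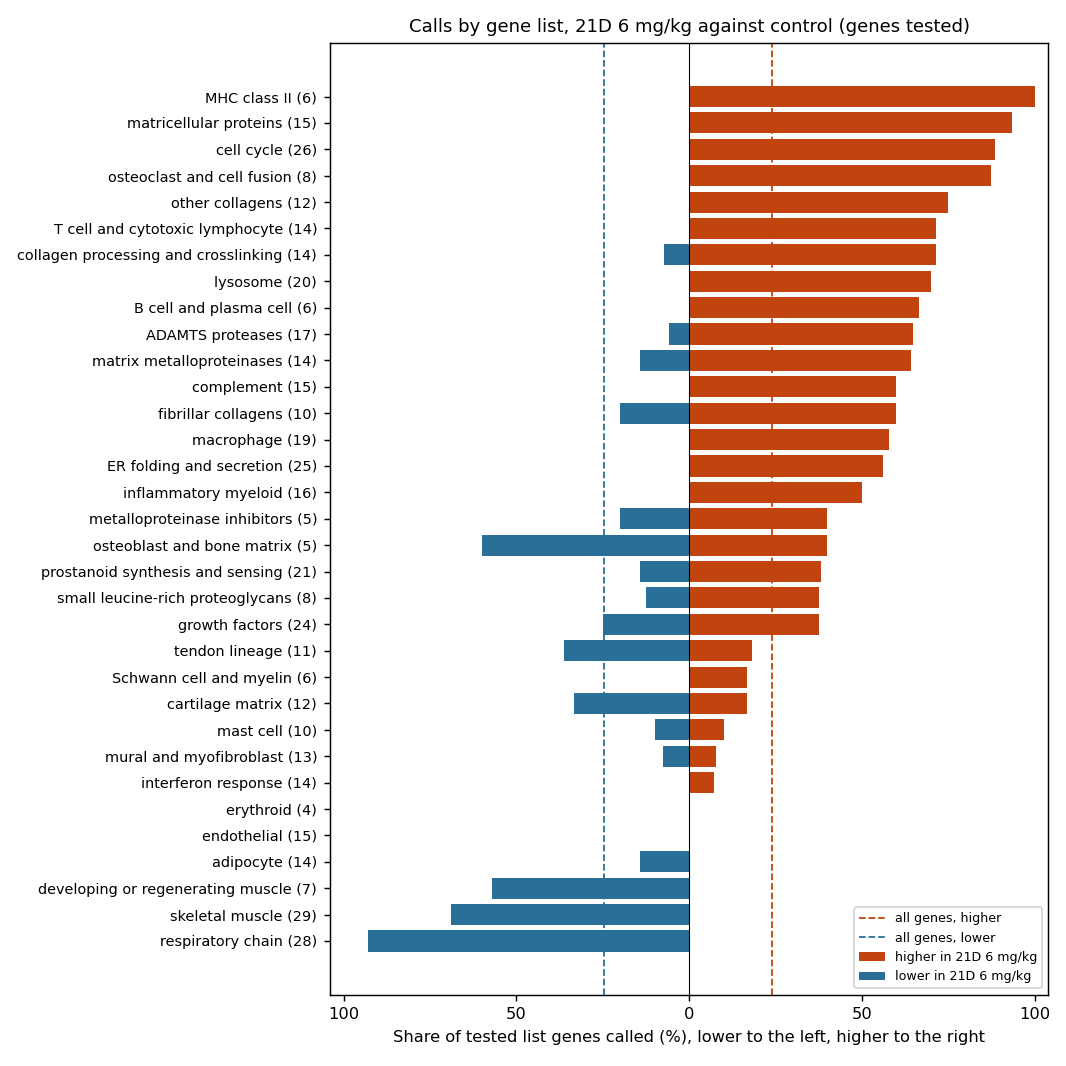
Share of the tested genes of each list (%, with the number tested in brackets) called higher (right) or lower (left) in 21D 6 mg/kg tendons than in control tendons. Dashed lines mark the share of all genes, 23.9% higher and 24.6% lower. MHC class II, matricellular and cell cycle genes stood furthest to the right and respiratory chain and skeletal muscle genes furthest to the left.

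Prostanoid genes bear on the enzyme that the compound inhibits. Of 21 tested, 8 were higher and 3 lower (median log2 fold change 0.19), and 5 were higher without control tendon 4. Hpgds, the target itself, was low in every tendon, at 7.07, 4.37 and 0.653 CPM in control tendons and 2.88, 3.79, 3.06, 2.05 and 2.23 CPM in repaired tendons, with overlap (log2 fold change -0.54 ± 0.50 (SE), edgeR adjusted p = 0.355). The control tendons spread over more than 10-fold and the repaired tendons lay within their range. Ptgs1, the constitutive cyclooxygenase, measured 59.02, 44.02 and 19.8 CPM and 48.3, 27.7, 35.7, 35.6 and 40.8 CPM (log2 fold change -0.13 ± 0.30 (SE), edgeR adjusted p = 0.725). Ptgs2, the inducible cyclooxygenase, measured 1.65, 5.77 and 2.94 CPM and 7.06, 8.23, 5.26, 6.55 and 7.17 CPM, and its groups overlapped (log2 fold change 0.98 ± 0.43 (SE), edgeR adjusted p = 0.0494). The call was lost when repaired tendon 1, 2, 4 or 5 was left out, at 0.97, 0.90, 0.99 and 0.96, or control tendon 2 or 4, at 0.57 and 0.83. It was also lost with the muscle share as a covariate, at 1.08 (adjusted p = 0.06102), when only the 2 groups compared were fitted, at 1.03 (adjusted p = 0.0523), without tendons 1, 2 and 4, at 0.83, and without tendons 3 and 5, at 1.06. Without control tendon 3 the value was 1.63.

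Of the enzymes for prostaglandin E2, Ptges, which is induced in inflammation, rose from 7.83, 9.41 and 3.75 CPM to 22.8, 18.7, 19.04, 26.3 and 19.2 CPM (log2 fold change 1.58 ± 0.27 (SE), edgeR adjusted p = 1.82e-05). Ptges2, a second synthase of the same product, fell from 58.7, 52.2 and 119 CPM to 24.1, 30.9, 14.8, 21.5 and 13.3 CPM (log2 fold change -1.87 ± 0.24 (SE), edgeR adjusted p = 4.25e-07). Fam213b, a synthase of prostaglandin F2 alpha, fell from 56.9, 55.9 and 151 CPM to 23.7, 25.5, 8.9, 15.5 and 9.19 CPM (log2 fold change -2.40 ± 0.33 (SE), edgeR adjusted p = 1.08e-06), and was at -1.81 without control tendon 4. The last 2 had their lowest levels in tendons 3 and 5 and, with the muscle share as a covariate, were at -1.40 and -1.87. Ptger2, an E2 receptor, rose from 0.424, 1.04 and 0.0816 CPM to 1.903, 3.19, 6.58, 5.13 and 11.5 CPM (log2 fold change 3.31 ± 0.80 (SE), edgeR adjusted p = 8.62e-04, and 4.31 without control tendon 3). Its highest levels were in tendons 5 and 3, and it was at 2.20 with the covariate. Ptgir, the prostacyclin receptor, was at -0.05 (adjusted p = 0.818). With the muscle covariate 4 of the list were higher and 3 lower.

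Set against repaired tendons without the compound, the 21D 6 mg/kg tendons gave 0 calls at an adjusted p under 0.05 by edgeR (0% of 12558 genes), with a smallest adjusted p of 0.741. At an unadjusted p under 0.05 there were 810 genes (6.45%), and limma called 0 and DESeq2 called 1. That 1 was Dhx16, an RNA helicase of splicing, at 30.8 ± 1.67 CPM with 0 mg/kg (mean ± SD, n = 5) and 24.6 ± 1.45 CPM with 6 mg/kg (n = 5), a log2 difference of -0.33 (95% interval -0.47 to -0.18), edgeR adjusted p = 0.741. Of all genes 95.2% lay within 1.5-fold between the doses, and the median SE of the log2 difference was 0.16. Other genes with the smallest p were Eif4b, a translation initiation factor, at 0.28 (95% interval 0.13 to 0.43), Cmc1, of complex IV assembly, at 0.98 (95% interval 0.49 to 1.47), Rps4x, a ribosomal protein with possible near-identical copies, at 0.67 (95% interval 0.33 to 1.02), and RGD1311744 at 1.72 (95% interval 0.82 to 2.63). All 4 had an adjusted p of 0.741.

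For the genes above, the intervals of the dose difference ranged from narrow to wide. The log2 difference between 6 and 0 mg/kg was 0.20 (95% interval -0.28 to 0.67) for Col3a1, 0.00 (95% interval -0.45 to 0.45) for Mmp14 and 0.25 (95% interval -0.28 to 0.78) for Lum. It was -0.14 (95% interval -0.85 to 0.58) for Tnn, -0.80 (95% interval -2.49 to 0.88) for Mmp12 and -0.60 (95% interval -1.80 to 0.60) for Gpnmb. For the drug target Hpgds the levels were 2.39 ± 1.203 CPM with 0 mg/kg and 2.801 ± 0.7 CPM with 6 mg/kg (mean ± SD, n = 5 each), a log2 difference of 0.23 (95% interval -0.68 to 1.14), edgeR adjusted p = 0.938. Ptgs2 was at -0.47 (95% interval -1.19 to 0.25), edgeR adjusted p = 0.831. A p that misses the limit does not show that the doses act alike, and the muscle share ranged over similar values in both groups. This comparison shares the 6 mg/kg tendons with the one against controls.

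Set against tendons 7 days after repair at the same dose, 1072 genes (8.54%) were higher and 571 (4.55%) lower at 21 days, at an adjusted p under 0.05 by edgeR's quasi-likelihood test. All 29 skeletal muscle genes and all 7 of developing muscle were higher. Csrp3, a muscle LIM protein of the Z-disc, was at 0.127 ± 0.101 CPM at 7 days (n = 3) and at 147 ± 126 CPM at 21 days (mean ± SD, n = 5; log2 fold change 9.87 ± 1.36 (SE), edgeR adjusted p = 2.75e-04). It had measured 253, 407 and 399 CPM in control tendons, and its 21-day levels were 218, 300.3, 21.1, 183 and 13.99 CPM (log2 fold change against control -1.26 ± 0.75 (SE), edgeR adjusted p = 0.141, and 0.60 with the muscle share as a covariate, called in neither). The muscle share, at most 0.0125% at 7 days, moved with these counts, and with that share as a covariate the calls fell from 1643 to 265. The share was 0.348% or more at 21 days. With no overlap between the times, the covariate cannot be fully told apart from time. Without the 3 tendons of over 5% muscle, which left 2 tendons at 21 days, the calls were 154, of which 20 were muscle genes. Without the 2 tendons of under 1% muscle there were 2254. Leaving out repaired tendon 2 gave 999, and leaving out 7D 6 mg/kg tendons 1, 4 or 5 gave 795, 873 or 879.

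Of the 5 genes with the smallest p between these times, 3 were no contractile genes of muscle. Tppp3, a tubulin binding protein of tendon sheath cells, was at 143 ± 36 CPM at 7 days and 501 ± 78.2 CPM at 21 days (log2 fold change 1.80 ± 0.21 (SE), edgeR adjusted p = 2.32e-05). Its control levels were 663, 622 and 533 CPM, and those at 21 days were 558, 447, 390.0, 548 and 563 CPM (log2 fold change against control -0.27 ± 0.19 (SE), edgeR adjusted p = 0.211). Zdhhc1, a palmitoyl transferase, had a log2 fold change between times of 1.43 ± 0.16 (SE), edgeR adjusted p = 2.32e-05, and Gid4, a substrate receptor of a ubiquitin ligase, one of 0.92 ± 0.13 (SE), edgeR adjusted p = 2.75e-04. Gid4 was still lower at 21 days than in control tendons, at 90.5, 111, 66.8, 90.7 and 80.5 CPM against 226, 234 and 240.1 CPM (log2 fold change -1.41 ± 0.12 (SE), edgeR adjusted p = 2.36e-09).

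T cell genes were lower at 21 than at 7 days in 10 of 14, adipocyte genes in 9 of 14, B cell genes in 5 of 6 and inflammatory myeloid genes in 5 of 16. The filter on low values kept any gene that averaged 3 CPM in 1 of the 7 groups, those at 7 days included. Genes let in by their 7-day level alone would tend to be lower at 21 days. Without this filter the T cell count was again 10 of 14, but the paper states that it too left out low genes. How many members were let in this way was not tested. Cd8a fell from 23.5 ± 0.638 CPM (n = 3) to 4.86 ± 1.66 CPM (n = 5; log2 fold change -2.27 ± 0.31 (SE), edgeR adjusted p = 2.75e-04), and the complement component C3 from 86.7 ± 23.5 CPM to 17.1 ± 8.596 CPM (log2 fold change -2.34 ± 0.41 (SE), edgeR adjusted p = 6.62e-04). At 21 days C3 was above control tendons, at 10.8, 7.33, 27.3, 24.4 and 15.8 CPM against 2.73, 4.85 and 1.22 CPM (log2 fold change 2.49 ± 0.49 (SE), edgeR adjusted p = 9.59e-05, and 3.08 without control tendon 3). Of the prostanoid list 6 were lower, with Ptgs2 at -1.29. None of the T cell, B cell, adipocyte, prostanoid or inflammatory myeloid genes was called at this comparison with the muscle share as a covariate. Without the 3 tendons of over 5% muscle 1 T cell gene was lower and none of the other lists' genes. That setting kept only 2 tendons at 21 days, and the part of the smaller group in the fewer calls was not tested. Without the 2 tendons of under 1% muscle, 11 T cell, 5 B cell, 7 adipocyte, 6 inflammatory myeloid and 3 prostanoid genes were lower. In that setting 2 prostanoid genes were higher. No fibrillar collagen gene was called between the times. Col3a1 and Col1a1 were at -0.24 ± 0.26 (SE), edgeR adjusted p = 0.606 and -0.48 ± 0.32 (SE), edgeR adjusted p = 0.353. Tnn and Tnc were lower at 21 days, at -1.23 and -1.77, but no matricellular gene was lower with the covariate or without the 3 tendons of over 5% muscle. Without the 2 tendons of under 1% muscle 1 matricellular gene was lower.

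**Figure D5:**
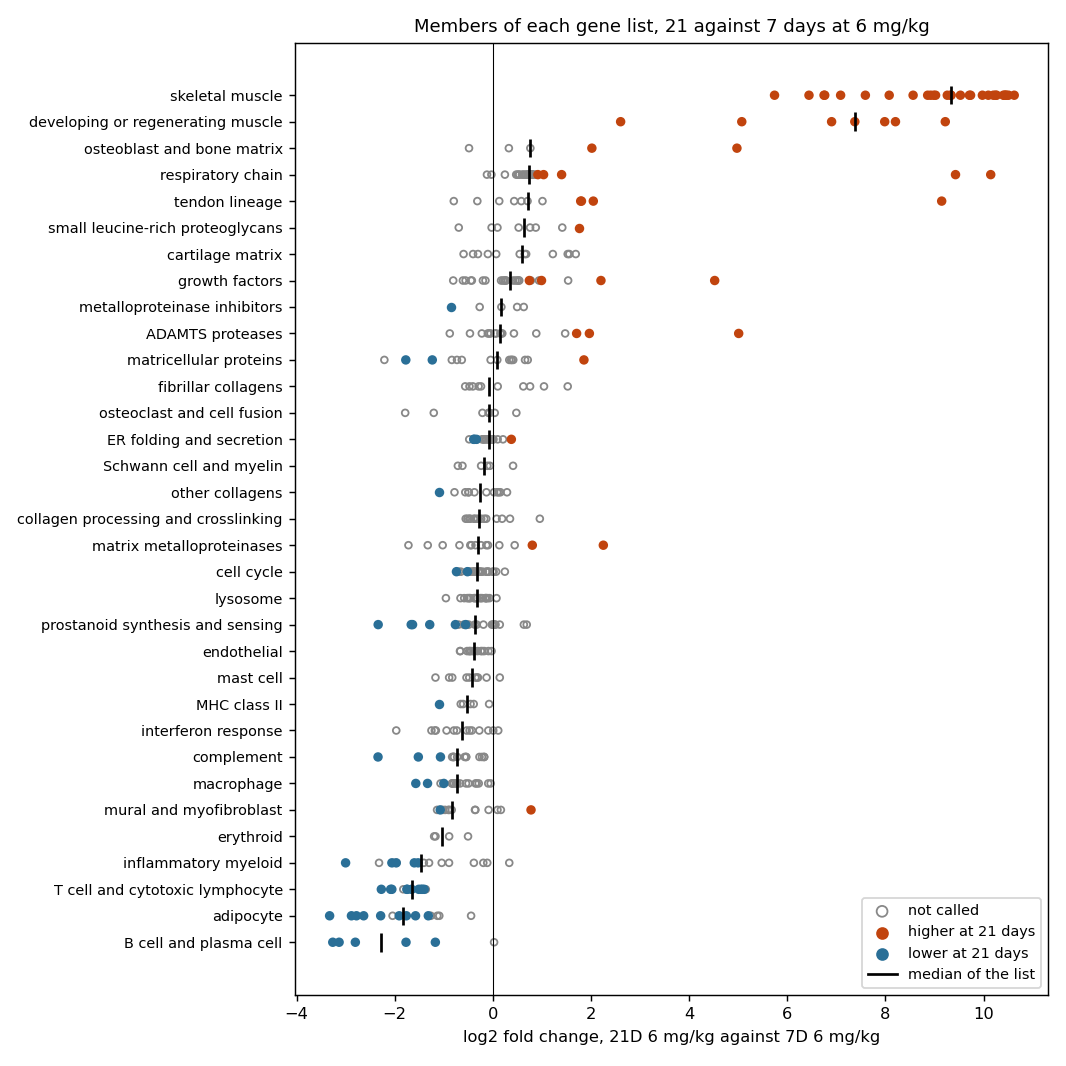
Log2 fold change of each list member at 21D 6 mg/kg against 7D 6 mg/kg, with the median of each list as a black line. Filled points passed an adjusted p under 0.05 and open points did not. All 29 skeletal muscle genes lay right of 5 and passed, and most T cell and B cell genes lay left of -1. Low genes could enter a list through their level at 7 days alone.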

How the data were processed

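The series holds RNA sequencing of whole right plantaris tendons from 30 rats, and the 5 tendons of 21D 6 mg/kg and 3 control tendons were compared. The paper sequenced 5 rats per group. It states that some libraries of control tendons and of 7-day tendons with the compound were left out for read quality. The authors trimmed reads with fastp, checked them with FastQC, aligned them to rn6 with STAR and deposited raw counts per gene of Ensembl release 95, together with an edgeR table of fold changes, p-values and false discovery rates that was not used except for its columns on chromosome and gene width (versions of these tools are not given in the sources used here). Here all 30 tendons in 7 groups were fitted in edgeR 4.0.16 (R 4.3.3) with TMM factors, after removal of 566 of 13124 genes under a mean of 3 CPM in every group, and tested by the quasi-likelihood method with Benjamini-Hochberg adjustment over 12558 genes. A call needed an adjusted p under 0.05 and, against control tendons, at least 1.5-fold. The SE is an approximation, the absolute log2 fold change divided by the square root of the quasi-likelihood F. The 95% intervals were built from it. Alternatives used limma 3.58.1, DESeq2 1.42.0, other scalings and filters, only the groups compared, a muscle covariate, a replicate block and omission of each tendon. The steps were also run on simulated counts with known changes in a small part of the genes. That simulation held no difference in muscle share between groups, so it cannot check the effect of one.

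The tendons and the 33 gene lists were chosen with earlier results of these data known. Genes named are the 10 largest increases and 10 largest decreases among called genes without overlap and with a mean of at least 10 CPM, up to 3 called genes with the largest change, the 2 most abundant and up to 2 not called in each list, the 5 smallest p against 21D 0 mg/kg and against 7D 6 mg/kg, and genes the study names, and not every gene that this rule gives is described. No molecular identifiers were used, so that limits from 3 counts cover counting error only. P-values measure the spread between these tendons. Some genes of prostaglandin synthesis and sensing are not analysed here. Promoter letters came from the RefSeq table on GRCr8 and were matched by symbol.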

Additional observations from a re-analysis of the deposited data

Results flagged for a closer look

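In 13 of 161 values tested (8.07%), 1 of the 5 repaired tendons lay apart from the other 4 by Dixon's test at its 95% critical value of 0.71. The test used levels and shares without a log scale. Its rate of about 1 in 20 groups holds for normal values, so 8.07% cannot be read as an excess. Tendon 5 lay apart in Mmp12 (960.1 CPM), Ccl9 (302 CPM), Itgax (119 CPM) and Egr2 (37.7 CPM), all genes called higher, and in the share of counts on osteoblast genes (0.00307%). Tendon 3 lay apart in Dcn (6370.3 CPM), Lox (712 CPM), Comp (578 CPM), Tnmd (315 CPM), LOC100911486 (131 CPM), Matn3 (19.99 CPM) and S100a9 (14.7 CPM). Tendon 1 lay apart in Acta2 (122 CPM). In each the value was the highest of the 5. Tendons 3 and 5 were also those with under 1% of counts on muscle genes, and the part of that share in these values was not tested.

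Of the 128 genes named, 30 passed an adjusted p of 0.05 in edgeR's quasi-likelihood test between 21 and 7 days at 6 mg/kg. The values are log2 fold changes at 21 against 7 days. Muscle genes were higher, with Myh4 at 10.62, Mb at 10.51, Cox6a2 at 10.15, Csrp3 at 9.87, Myoz1 at 9.71, Cox8b at 9.43, Myh3 at 7.99, Myod1 at 7.38, Fbp2 at 6.72 and Mstn at 4.52. Other genes that were higher were LOC290595 (2.72), Cdhr1 (2.21), Dmp1 (2.02), Adamts19 (1.97), Tppp3 (1.80), Adamts16 (1.71), Zdhhc1 (1.43), Ndufs1 (1.40) and Gid4 (0.92). Genes that were lower were C3 (-2.34), Cd8a (-2.27), Tnc (-1.77), Cd3g (-1.75), Cd163 (-1.57), Ptgs2 (-1.29), Tnn (-1.23), Ciita (-1.11), Col12a1 (-1.10), Timp1 (-0.85) and Ptgir (-0.56). Of these, Tnn, Timp1, Ciita, Col12a1, C3, Cd8a, Cd3g and Ptgs2 were at the same time higher than in control tendons.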

How the results depend on the processing

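Against control tendons, 3003 genes were higher and 3085 lower. Scaling by library size only gave 5485 and 1600. The other alternatives stayed within 1.5 times of both counts, and leaving out 1 tendon gave 2374 to 3215 higher and 2826 to 3407 lower. The calls at 21 against 7 days, 1643, fell to 265 with the muscle share as a covariate and, in alternatives chosen after the data were seen, to 154 without the 3 repaired tendons over 5% muscle, and rose to 2254 without the 2 under 1%. The fit with 154 calls kept only 2 tendons at 21 days. Leaving out 1 tendon gave 795 to 1973. Between doses at 21 days edgeR made 0 calls in every alternative and whichever tendon was left out (0 to 0), and DESeq2 made 1. The named genes kept their direction wherever they were called, and 6 lost their call with the covariate, under which Mb, Csrp3, Myh3, Mmp3 and Mmp10, not called in the comparison, turned direction. Mb is itself part of the muscle share. Replicate numbers did not pair the tendons: same-numbered control and repaired tendons had correlations of -0.18, 0.18 and -0.08, and 1 of 3 correlated best with its own number. With the replicate block 3083 genes were higher and 3089 lower, 1702 differed between times and 0 between doses. Every control tendon had more muscle RNA than every repaired tendon, so the covariate cannot be fully told apart from the group. Apart from it and the omissions above the part of that share was not tested. Counting depth limits genes under about 0.245 CPM in the shallowest tendon.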

Other observations

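Genes of bone-forming cells, fat, nerve sheath and blood showed no common direction between 21D 6 mg/kg and control tendons. Of 5 osteoblast and bone matrix genes 2 were higher and 3 lower (median log2 fold change -1.45). Dmp1, a matrix protein of osteocytes, measured 8.77, 10.2 and 2.86 CPM in control tendons 2, 3 and 4 and 1.23, 3.21, 0.704, 1.403 and 2.97 CPM in repaired tendons 1 to 5 (log2 fold change -1.94 ± 0.56 (SE), edgeR adjusted p = 0.00421), and the groups overlapped. With the muscle share as a covariate none of the 3 was lower and Dmp1 was at -1.22, and without control tendon 4 1 of the 3 was lower. Of 14 adipocyte genes 2 were lower (median -0.24). Plin4, a coat protein of lipid droplets that fat and muscle share, measured 198, 148 and 134 CPM and 25.6, 43.6, 10.97, 28.5 and 5.58 CPM (log2 fold change -2.81 ± 0.66 (SE), edgeR adjusted p = 6.58e-04, and -1.83 with the covariate), whereas Fabp4, the fatty acid carrier of fat cells, had a log2 fold change of -0.09 (adjusted p = 0.866). Of 6 Schwann cell genes, 1 was higher, Pmp22, at 460.4, 326 and 136 CPM against 449, 462, 555, 533 and 578 CPM with overlap (log2 fold change 0.74 ± 0.22 (SE), edgeR adjusted p = 0.00516, and 0.35 and not called without control tendon 4). None of 4 erythroid genes was called (median 0.41), and reads of the hemoglobin genes may be shared among near-identical copies.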
